A study of Homo sapiens with 2 samples.

Results

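Divergent coding gene pairs are pairs of protein-coding genes that lie on opposite strands and are transcribed away from each other from nearby starts, so that the DNA between the starts serves as a bidirectional promoter for both. Pairs were taken from the autosomal genes with a MANE Select transcript (1 agreed transcript per gene) in GENCODE release 44 lifted to hg19, and the starts had to lie at most 1000 bp apart. The interval of a pair ran from 250 bp inside the gene on the minus strand to 250 bp inside the gene on the plus strand. Of 18069 such genes, 1713 formed 859 pairs, since a few genes belonged to 2 pairs. A total of 795 pairs (92.5%) had at least 10 CpG sites covered by 5 or more reads in each library and are described here, 34 pairs had 0 such sites and 30 pairs had 1 to 9. The 795 pairs hold 1585 genes and 790 distinct intervals, with a median of 239 bp between the starts (range 18 to 999 bp).

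The data were MCC-Seq libraries, in which bisulfite turns unmethylated cytosines into bases read as thymine and probes then capture selected converted regions. There was 1 library of SKNO-1, an acute myeloid leukemia cell line with the t(8;21) fusion RUNX1-RUNX1T1 (AML1-ETO), and 1 library of SKNO-siAE, labelled SKNO1-siAE. SKNO-siAE was made from SKNO-1 by infection with the lentiviral vector pRRLcPPT.hPGK, which carries siAGF1 oligonucleotides directed at the junction of the fusion mRNA. Both lines were cultured in the same medium, no library of a control vector was analysed here, and silencing of the fusion cannot be read from these counts. The libraries held 83620068 and 82164216 site reads, and 3168726 sites were read at least 5 times in each, at a median depth of 16 and 15 reads. With 1 library per line there is no replicate error, and a difference between these libraries cannot be told apart from a difference between any 2 cultures, clones or preparations of the lines.

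In bidirectional promoters, transcription complexes face outward on both strands from a shared stretch that is usually free of nucleosomes. Many such promoters are CpG islands, lack a TATA box and serve housekeeping genes of DNA repair, replication and mitochondria. Methylation of such an island is typically found at silenced promoters.

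For the pairs on which the results turn, the sequence between the starts is shown on the plus strand of GRCh37, 5′ to 3′, with every CpG in capitals. The first 3 pairs had a lower methylation level in SKNO-1, the next 2 had a higher level in SKNO-1, and the last 2 were methylated in both libraries. The stretches lie at chr6:27782556-27782799, chr20:30458331-30458436, chr16:3493505-3493679, chr19:37407194-37407233, chr5:139944184-139944412, chr13:110959505-110959630 and chr1:228645575-228645803, in the order of the lines. In each, the gene named first is on the minus strand and the gene named second on the plus strand.
H2AC14/H2BC14: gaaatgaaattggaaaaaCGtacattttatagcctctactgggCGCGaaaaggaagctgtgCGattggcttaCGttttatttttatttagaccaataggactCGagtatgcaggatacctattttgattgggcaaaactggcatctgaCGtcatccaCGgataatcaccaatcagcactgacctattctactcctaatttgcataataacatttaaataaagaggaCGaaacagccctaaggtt
DUSP15/TTLL9: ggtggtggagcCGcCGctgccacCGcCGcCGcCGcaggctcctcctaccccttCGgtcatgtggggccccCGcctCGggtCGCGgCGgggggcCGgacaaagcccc
ZNF597/NAA60: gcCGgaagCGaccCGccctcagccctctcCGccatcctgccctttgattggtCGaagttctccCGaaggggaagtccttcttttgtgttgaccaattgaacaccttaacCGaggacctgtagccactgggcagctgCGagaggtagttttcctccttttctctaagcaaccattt
ZNF829/ZNF568: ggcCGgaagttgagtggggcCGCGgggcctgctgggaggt
APBB3/SLC35A4: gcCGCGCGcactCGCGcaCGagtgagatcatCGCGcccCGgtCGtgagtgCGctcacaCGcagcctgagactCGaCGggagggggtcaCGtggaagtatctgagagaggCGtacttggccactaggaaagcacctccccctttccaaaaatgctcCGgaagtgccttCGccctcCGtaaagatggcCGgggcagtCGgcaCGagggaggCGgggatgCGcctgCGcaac
COL4A1/COL4A2: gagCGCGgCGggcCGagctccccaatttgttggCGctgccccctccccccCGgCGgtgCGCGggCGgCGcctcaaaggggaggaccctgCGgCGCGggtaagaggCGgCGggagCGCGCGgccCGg
H2AC25/H2BC26: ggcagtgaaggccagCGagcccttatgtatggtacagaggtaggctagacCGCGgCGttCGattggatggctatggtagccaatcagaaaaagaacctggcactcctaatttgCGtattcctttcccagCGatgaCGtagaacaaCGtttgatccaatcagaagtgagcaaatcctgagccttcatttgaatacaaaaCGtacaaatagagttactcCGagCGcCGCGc
The stretches differ widely in base composition. The H2AC14/H2BC14 stretch is 244 bp long with 9 CpGs and 38.9% G or C, whereas the COL4A1/COL4A2 stretch holds 20 CpGs in 126 bp at 80.2% G or C. The ZNF829/ZNF568 stretch is 40 bp long and holds 3 CpGs.

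Most divergent pairs were unmethylated in both libraries. The level of a site is its methylated reads over all its reads, and the level of a pair is the mean over its sites. The median level over the 795 pairs was 0.00329 in SKNO-1 against 0.00237 in SKNO-siAE, and the mean level was 0.0475 and 0.0570. A level under 0.1 was found at 733 pairs (92.2%) in SKNO-1, at 719 pairs (90.4%) in SKNO-siAE and at 711 pairs (89.4%) in both. Among the 10609 other MANE Select promoters with at least 10 sites, taken as 250 bp on each side of the start, 57.2% were under 0.1 in both. A level of 0.5 or more in both libraries was found at 27 pairs (3.40%) and at 26.3% of the other promoters. These are shares of intervals in 1 library per line, and no test was made between the sets.

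The difference between the libraries, taken as SKNO-1 minus SKNO-siAE, was 0.2 or more in either direction for few pairs. The level was lower in SKNO-1 for 23 pairs (2.89%), where 13.2% of the other promoters were lower by the same rule. An interval under 0.1 in SKNO-siAE cannot be lower by 0.2. Such intervals were 90.4% of the pairs and 59.6% of the other promoters. The share of lower intervals, here and below, is therefore limited by the level in SKNO-siAE. The level was higher in SKNO-1 for 8 pairs (1.01%), where 3.06% of the other promoters were higher. The remaining 764 pairs (96.1%) lay within 0.2. The mean difference was -0.00952 over the pairs and -0.0650 over the other promoters, and the median was 0 for both. The middle of the distribution was narrow, since the quartiles of the difference over pairs were -0.00444 and 0.00418. Pairs had more sites than the other promoters (median 56 against 31) at a similar depth (median of the mean depth 15.7 against 15.3 in SKNO-1, and 15.1 against 15.2 in SKNO-siAE).

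**Figure D1:**
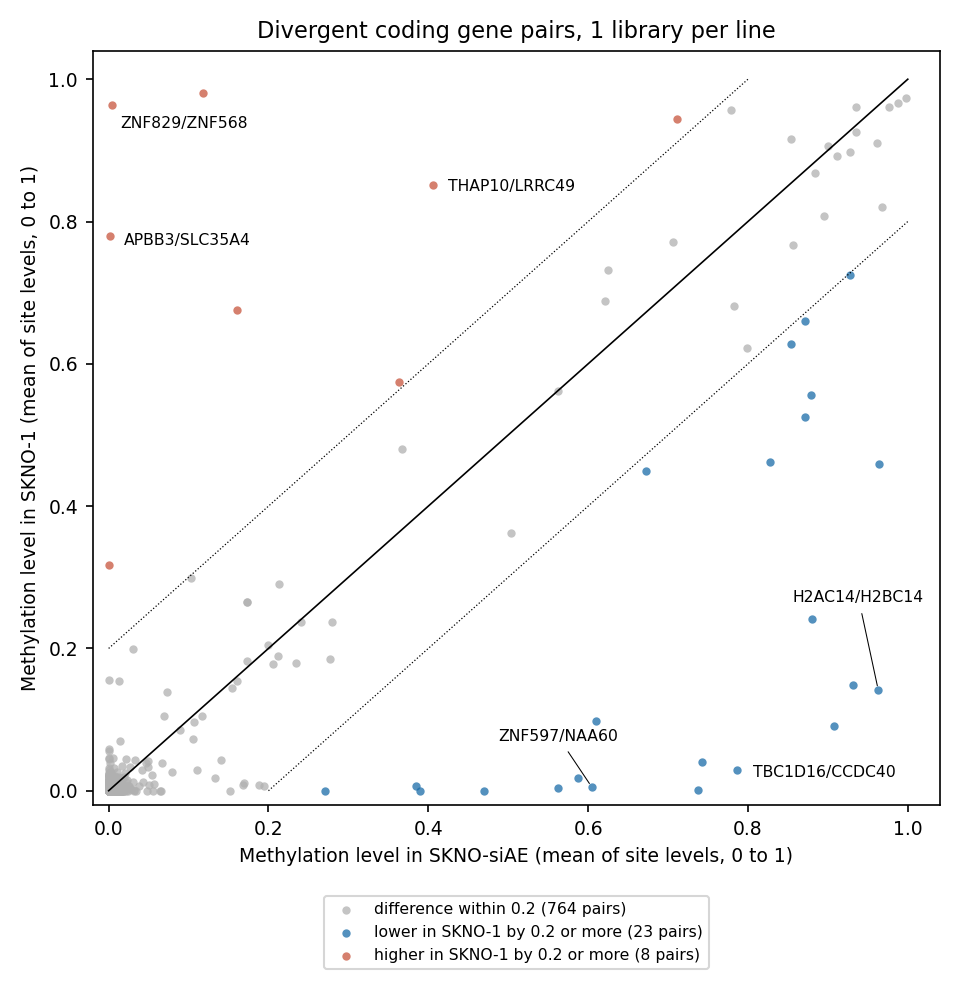
Methylation level of each of the 795 divergent pairs in SKNO-siAE (x axis) and SKNO-1 (y axis), each the mean of its site levels from 0 to 1 in 1 library. The dotted lines mark a difference of 0.2: 23 pairs lie below them, 8 pairs above them, and 711 pairs sit under 0.1 on both axes.

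The pairs that were lower in SKNO-1 were mostly methylated in SKNO-siAE and unmethylated or partly methylated in SKNO-1. Of the 23 pairs, 19 had a level of 0.5 or more in SKNO-siAE, 12 had a level under 0.1 in SKNO-1, and 8 met both. Taking all pairs with a level of 0.5 or more in SKNO-siAE, 19 of 42 (45.2%) were lower in SKNO-1 by 0.2 or more, against 1210 of 3749 (32.3%) of the other promoters. Taking all pairs with a level of 0.5 or more in SKNO-1, 7 of 33 (21.2%) were higher in SKNO-1, against 8.68% of the other promoters. Such shares are descriptions, since the level that chose the intervals is part of the difference.

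H2AC14/H2BC14, which encode a replication-dependent H2A and a replication-dependent H2B histone, had one of the largest differences in this direction, close to that of FBXO2/FBXO44 (-0.82 for both as means of site levels, and -0.84 and -0.86 with pooled reads). Over 81 sites at a mean depth of 49.8 and 57.2 reads, the level was 0.142 in SKNO-1 against 0.963 in SKNO-siAE, a difference of -0.82. The pooled reads gave 541 methylated of 4036 in SKNO-1 (0.134, 95% Wilson interval 0.124 to 0.145) and 4525 of 4637 in SKNO-siAE (0.976, 0.971 to 0.980). Read counts of a pair are summed over its sites, so 1 read is counted at each site it covers. The Wilson intervals here and below treat these counts as independent, and the reads carry no molecular identifiers. The intervals are therefore narrower than the counting error, and they hold no error between libraries. The sites were not uniform along the interval. The side of H2AC14 (55 sites) and the 18 sites between the starts were at 0 in SKNO-1, while the side of H2BC14 (26 sites) was at 0.442. Both sides were methylated in SKNO-siAE, at 0.957 and 0.975. Histone genes belong to a family of close copies, and the authors kept unique sequences only.

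FBXO2/FBXO44, which encode F-box subunits of ubiquitin ligases, were at 0.0909 in SKNO-1 against 0.908 in SKNO-siAE over 55 sites. Its starts lie on chromosome 1 of hg19 at 11714486 and 11714934. GGN/SPRED3 pairs gametogenetin, a germ cell protein, with an inhibitor of Ras signalling, and was at 0.148 and 0.931 over 18 sites. The 18 sites of GGN/SPRED3 had an average of 6 reads in SKNO-1, so its level there is imprecise, and all lie on the plus strand. TBC1D16/CCDC40 pairs a GTPase-activating protein for Rab proteins with a protein needed for motile cilia. It was at 0.0285 in SKNO-1 against 0.786 in SKNO-siAE over 111 sites, of which 93 were lower by a Fisher's exact test of each site. SCGB2B2/ZNF302, a secretoglobin gene and a zinc finger gene on chromosome 19, was at 0.000880 and 0.738 over 71 sites, with 2 methylated reads of 1852 in SKNO-1 against 1069 of 1558 in SKNO-siAE.

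DUSP15/TTLL9 pairs a dual specificity phosphatase with an enzyme of tubulin modification, and was at 0.0406 in SKNO-1 against 0.742 in SKNO-siAE over 29 sites, 0 of them in the stretch between the starts. ENKUR/THNSL1, of which ENKUR encodes a protein of sperm and cilia, was at 0.242 and 0.880 over 47 sites. ZNF597/NAA60, the promoter of the imprinted zinc finger gene ZNF597 and of an N-terminal acetyltransferase gene, was at 0.00530 and 0.605 over 59 sites. An imprinted promoter carries methylation on the allele of 1 parent, so levels between unmethylated and fully methylated are usual there. In SKNO-1 only 3 of 748 reads at ZNF597/NAA60 were methylated, against 1510 of 2288 in SKNO-siAE. The 5-Mb bin that holds ZNF597/NAA60 had fewer site reads in SKNO-1, with a log2 ratio of -1.06 relative to the median bin, and the part of copy number in this difference was not tested.

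The other 15 lower pairs, all named here after their values were seen except the list member ZNF214/NLRP14, had differences from -0.57 to -0.20. CYP39A1/SLC25A27 (an oxysterol hydroxylase and a mitochondrial carrier) was at 0.0181 in SKNO-1 against 0.587 in SKNO-siAE. CDC42SE1/MLLT11, of which MLLT11 is a known fusion partner of MLL in leukemia, was at 0.00325 and 0.563. Both pairs were close to 0 in SKNO-1. The difference of CDC42SE1/MLLT11 was -0.40 on the plus strand and -0.87 on the minus strand, and that of CYP39A1/SLC25A27 was -0.72 and -0.48. PECR/TMEM169 was at 0.0974 and 0.610, CCDC122/LACC1 at 0.459 and 0.965, and TMEM53/ARMH1 at 0 and 0.469. PECR/TMEM169 rested on 14 sites and 91 reads in SKNO-1. The difference of CCDC122/LACC1, -0.51 over all its sites, was within 0.2 at sites with 10 or more reads (-0.19) and on the plus strand (-0.17). At TMEM53/ARMH1, 0 of 1313 reads, summed over sites, were methylated in SKNO-1, against 527 of 1271 in SKNO-siAE. The upper Wilson bound for SKNO-1, 0.00292, treats these reads as independent and is too low. The difference of TMEM53/ARMH1 was -0.30 on the plus strand and -0.60 on the minus strand.

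PRDX2/THSD8 had 0 methylated reads of 844 in SKNO-1 against 241 of 564 in SKNO-siAE, with levels of 0 and 0.390. PRDX2 encodes a peroxiredoxin that is abundant in red cells. SIAE/SPA17, the genes of a sialic acid esterase and of a sperm protein, was at 0.00629 and 0.385 over 97 sites. STX8/CFAP52 was at 0 and 0.271. These 3 pairs and TMEM53/ARMH1 were unmethylated in SKNO-1 and only partly methylated in SKNO-siAE. In the remaining 7 pairs, as in CCDC122/LACC1, the SKNO-1 library was itself partly or mostly methylated. SGSH/SLC26A11, of which SGSH encodes a lysosomal sulfatase, was at 0.463 and 0.827, FOXL2/FOXL2NB, of which FOXL2 encodes an ovarian transcription factor, at 0.525 and 0.872, and PEX11A/WDR93 at 0.556 and 0.879. SNCB/EIF4E1B was at 0.628 and 0.854, DUOX2/DUOXA2, a dual oxidase and its maturation factor, at 0.449 and 0.672, and ZNF214/NLRP14 at 0.661 and 0.871. KCTD19/LRRC36 was nearest to the limit, at 0.724 and 0.928. Several of these differences lay within 0.2 under another setting. With pooled reads this held for ZNF214/NLRP14 (-0.17) and KCTD19/LRRC36 (-0.19), and at 10 or more reads for ZNF214/NLRP14 (-0.09). On the plus strand alone it held for SGSH/SLC26A11 (-0.14), DUOX2/DUOXA2 (-0.17) and KCTD19/LRRC36 (-0.01), and on the minus strand alone for FOXL2/FOXL2NB (-0.12), SNCB/EIF4E1B (-0.06), ZNF214/NLRP14 (-0.15) and STX8/CFAP52 (0). Other settings gave larger differences. SGSH/SLC26A11, at -0.36 over all its sites, was at -0.75 at 10 or more reads, -0.52 with pooled reads, -0.58 with merged strands and -0.72 on the minus strand. STX8/CFAP52, at -0.27, was at -0.42 at 10 or more reads and -0.48 with pooled reads. On the plus strand alone FOXL2/FOXL2NB was at -0.63, PEX11A/WDR93 at -0.60 and ZNF214/NLRP14 at -0.44.

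Of the 8 pairs with a higher level in SKNO-1, 3 had levels under 0.1 in SKNO-siAE. ZNF829/ZNF568, which encode KRAB zinc finger proteins on chromosome 19, had the largest difference of all pairs. Its starts lie 41 bp apart, and over 90 sites the level was 0.964 in SKNO-1 against 0.00450 in SKNO-siAE, a difference of 0.96. Of its reads, 2408 of 2510 were methylated in SKNO-1 (0.951 to 0.966 as the 95% Wilson interval) and 13 of 1983 in SKNO-siAE (0.00384 to 0.0112). Reads are counted at each site they cover, so these intervals are too narrow. By the test of single sites, 89 of the 90 were higher in SKNO-1. The difference was 0.96 on each strand, 0.94 on the side of ZNF829 and 0.97 on the side of ZNF568.

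APBB3/SLC35A4, an adaptor that binds the amyloid precursor protein and a transporter-like protein, was at 0.779 and 0.00109 over 92 sites, with 1 methylated read of 850 in SKNO-siAE. It lies in a 5-Mb bin with relatively many SKNO-1 reads (log2 read ratio 0.995 relative to the median bin). PDZD7/SFXN3, of which SFXN3 encodes a mitochondrial serine carrier, was at 0.317 in SKNO-1 against 0 in SKNO-siAE, where 0 of 534 reads were methylated. Its 29 sites all lie on the side of SFXN3, and its difference was 0.51 on the plus strand and 0.16 on the minus strand.

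A further 4 higher pairs were methylated to some extent in SKNO-siAE. FAM83H/IQANK1, of which FAM83H is required for dental enamel, was at 0.676 and 0.161, on 235 and 306 reads. THAP10/LRRC49 was at 0.852 and 0.406 over 88 sites, LCMT2/ADAL, of which LCMT2 modifies transfer RNA, at 0.944 and 0.711, and TSPAN19/LRRIQ1 at 0.575 and 0.363. At 10 or more reads LCMT2/ADAL (0.13) and TSPAN19/LRRIQ1 (0.16) lay within 0.2, as did LCMT2/ADAL with pooled reads (0.19) and on the plus strand (0.16), and FAM83H/IQANK1 (0.16) and TSPAN19/LRRIQ1 (0.17) on the minus strand. At THAP10/LRRC49 the 27 sites between the starts were at 0.704 in SKNO-1 against 0.0350 in SKNO-siAE, so that the middle of the interval differed more than its flanks.

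**Figure D2:**
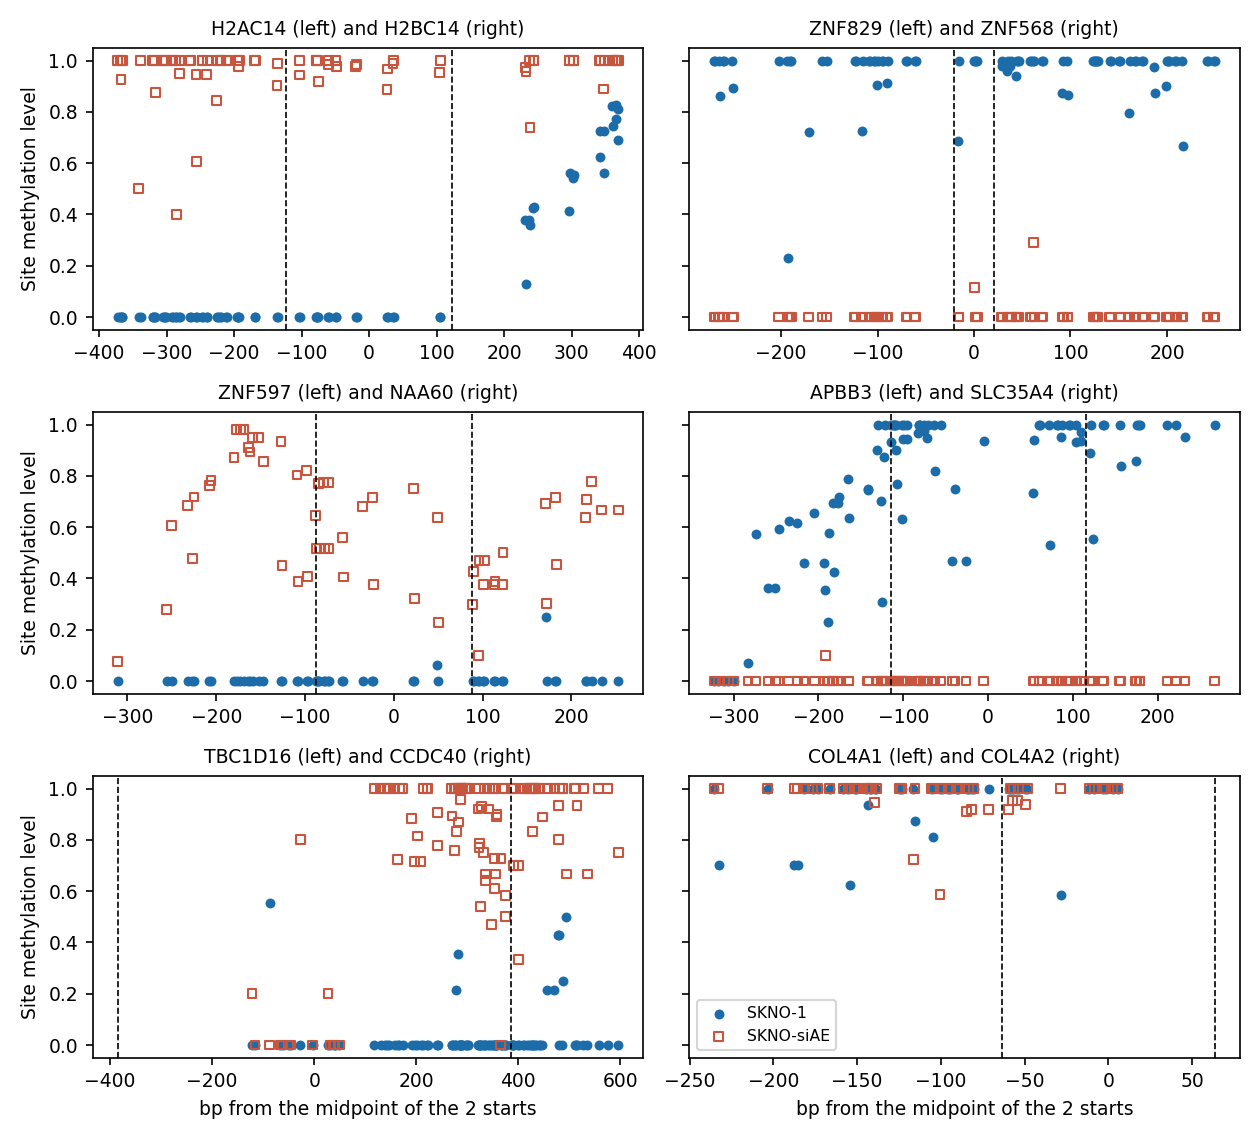
Methylation level of single CpG sites (y axis) by distance from the midpoint between the starts in bp (x axis) for 6 pairs, with dashed lines at the starts, filled circles for SKNO-1 and open squares for SKNO-siAE. At H2AC14/H2BC14 all 55 sites left of the midpoint are at 0 in SKNO-1, and at COL4A1/COL4A2 both libraries lie near 1.

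A pair has sides that belong to different genes, and the methylation did not always cover both. The interval was divided at the midpoint, and 670 pairs had at least 5 sites on each side. Of 20 lower pairs with enough sites, 13 were lower by 0.2 or more on both sides, 2 only on the side of the minus-strand gene and 5 only on the side of the plus-strand gene. Of 6 such higher pairs, 3 were higher on both sides and 3 only on the side of the minus-strand gene. A difference on 1 side only means here that the other side lay within 0.2 or differed the other way. No test was made between sides.

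Some pairs showed a sharp boundary. At CDC42SE1/MLLT11 the side of CDC42SE1 was at 0.00952 in SKNO-1 against 0 in SKNO-siAE, while the side of MLLT11 was at 0 and 0.854. At STX8/CFAP52, of which CFAP52 is a gene of cilia, the side of STX8 was at 0 and 0.0356 and the side of CFAP52 at 0 and 0.958. TBC1D16/CCDC40 had the same form, with 0.0617 and 0.111 on the side of TBC1D16 (9 sites) and 0.0255 and 0.846 on the side of CCDC40 (102 sites). In each of these pairs the plus-strand gene held the methylated side in SKNO-siAE. DUOX2/DUOXA2 differed in opposite directions, since the side of DUOX2 (9 sites) was at 0.660 in SKNO-1 against 0.363 in SKNO-siAE and the side of DUOXA2 (39 sites) at 0.401 and 0.744. At TMEM53/ARMH1 both sides were at 0 in SKNO-1, and the side of ARMH1 was at 1 in SKNO-siAE against 0.348 on the side of TMEM53.

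Among the 644 pairs within 0.2 that had enough sites, 14 had a difference of 0.2 or more on 1 side. Named after their values were seen, CRAT/PTPA was at 0 and 0.800 on the side of CRAT, the gene of carnitine acetyltransferase, and at 0.00893 and 0.00511 on the side of PTPA. WDR87/SIPA1L3 was at 0.203 and 0.759 on the side of WDR87, and SCN11A/WDR48 at 0.0171 and 0.423 on the side of the sodium channel gene SCN11A. In each of these the other side was under 0.01 in both libraries. In the opposite direction, EXD1/CHP1 was at 0.440 in SKNO-1 against 0.0669 in SKNO-siAE on the side of EXD1, and VPS29/RAD9B was at 0.331 and 0 on the side of RAD9B.

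Some boundaries were present in both libraries. The sides of a pair differed by 0.5 or more at 11 of 670 pairs in SKNO-1 against 18 in SKNO-siAE, counting TEX14/RAD51C and IGBP1C/RAD51C, which share an interval, as 2. SH3YL1/ACP1 had the largest gap between sides in both, with 0.978 and 0.980 on the side of SH3YL1 and 0.00272 and 0 on the side of the phosphatase gene ACP1. NOL9/TAS1R1 had 0.0137 in both on the side of NOL9, a gene of ribosome synthesis, and 0.956 and 0.928 on the side of the taste receptor gene TAS1R1. At SERINC4/HYPK the side of SERINC4 was at 0.926 and 0.723 and the side of HYPK at 0.0288 and 0.00213. These pairs had intermediate levels over the whole interval (0.561 and 0.562 for SH3YL1/ACP1), which therefore stood for an unmethylated and a methylated side.

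The pairs methylated in both libraries were few. The 6 with the highest lower-of-both level were FAM229A/TSSK3 (0.974 in SKNO-1 against 0.997 in SKNO-siAE), TRIM50/FKBP6 (0.967 and 0.988), SEPTIN10/SOWAHC (0.962 and 0.935), COL4A1/COL4A2 (0.960 and 0.976), H2AC25/H2BC26 (0.926 and 0.935) and CHDH/IL17RB (0.911 and 0.962). TSSK3 encodes a testis kinase and FKBP6 a meiosis protein. COL4A1/COL4A2, the type IV collagen chains of basement membranes and the classical example of a shared promoter, had 538 methylated reads of 564 in SKNO-1 against 538 of 558 in SKNO-siAE over 52 sites, 50 of them on the side of COL4A1. CHDH/IL17RB rested on 10 sites and SEPTIN10/SOWAHC on 13. Of the 27 pairs with a level of 0.5 or more in both, 20 had a CpG observed/expected ratio of 0.6 or more. These 27 included 5 of the lower pairs and 1 of the higher pairs.

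Most pairs were unmethylated whatever their genes, so the lists are set beside all 795 pairs, of which 89.4% were under 0.1 in both libraries, 2.89% lower and 1.01% higher. Of 44 pairs of DNA repair and replication genes, 42 were under 0.1 in both, and 0 were lower or higher by 0.2, which is near those shares at this number of pairs, with a median difference of 0.000287 and a range from -0.0244 to 0.0916. NPAT/ATM, which joins an activator of histone genes to the DNA damage kinase ATM, had 11 methylated reads of 3077 in SKNO-1 against 21 of 1869 in SKNO-siAE. ZAR1L/BRCA2 had 4 of 715 and 0 of 1312. At TMEM258/FEN1, of which FEN1 encodes a flap endonuclease, 0 of 1485 and 0 of 999 reads were methylated. The upper Wilson bounds of 0.00258 and 0.00383 treat reads at each site as independent and are too low. PRKDC/MCM4, a DNA repair kinase and a subunit of the replicative helicase, was at 0.00916 and 0.000638.

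Of 57 pairs on the list of mitochondrial genes, 56 were under 0.1 in both and 0 differed by 0.2, with a median difference of 0.000273. The list does not hold every mitochondrial gene. CYP39A1/SLC25A27 (-0.57) and PDZD7/SFXN3 (0.32), named above with mitochondrial carriers, were called and are not on it. The count of 0 is again near the shares over all pairs. HSPD1/HSPE1, the mitochondrial chaperonins, had 18 methylated reads of 650 in SKNO-1 against 0 of 677 in SKNO-siAE, and SIRT3/PSMD13 had 0 of 676 and 4 of 781. Among the other textbook pairs, the purine synthesis genes PPAT/PAICS had 19 methylated reads of 3148 and 3 of 1076, GART/SON 2 of 1498 and 5 of 2482, and TK1/AFMID 51 of 1299 and 28 of 673. The mean of site levels at PPAT/PAICS was 0.0240 and 0.00234, a difference of 0.0217 that was 0.00325 with pooled reads and -0.00177 at 10 or more reads. The pair lies in a bin with a log2 read ratio of 2.10. The differences of GART/SON and TK1/AFMID, -0.00442 and 0.00148, also changed sign at 10 or more reads, and no direction is given for these 3 pairs. Of the 11 pairs of replication-dependent histone genes, H2AC14/H2BC14 was lower, 7 were under 0.1 in both, and H2AC25/H2BC26, H2AC1/H2BC1 (0.898 and 0.928) and H3C7/H2BC9 (0.820 and 0.967) were methylated in both.

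Of 27 pairs with a zinc finger gene, 3 were lower (SCGB2B2/ZNF302, ZNF597/NAA60 and ZNF214/NLRP14), 1 was higher (ZNF829/ZNF568), and 20 were under 0.1 in both, beside 2.89%, 1.01% and 89.4% of all pairs. Their median difference was 0.00116, against 0 over all pairs. The 2 pairs of antigen presentation and interferon genes with enough sites were under 0.1 in both, and TAP1/PSMB9 and PARP9/DTX3L had 0 shared sites.

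Nearly all divergent pairs were CpG-rich, and so were most of the pairs that differed. The CpG observed/expected ratio was 0.6 or more for 96.1% of the pairs and for 80.3% of the other promoters. Of the 31 pairs that were lower or higher, 28 lay at 0.6 or more. In that range, 21 of 764 pairs (2.75%) were lower in SKNO-1, against 954 of 8521 other promoters (11.2%), and 7 of 764 pairs (0.916%) against 233 of 8521 other promoters were higher. There, 92.3% of the pairs and 69.7% of the other promoters were under 0.1 in SKNO-siAE, where no lower call was possible. Of the 31 pairs under 0.6, 6.45% were lower, against 21.6% of the other promoters. In each bin of the ratio from 0.4 upward, a smaller share of pairs than of other promoters was lower, although the bin from 0.4 to 0.6 held only 23 pairs. The share of lower pairs was 2.80% where the starts lay up to 100 bp apart, 3.35% from there to 300 bp and 2.38% beyond 300 bp. Of the 24 pairs in the last 100 bp inside the limit of 1000 bp, 0 were called, and of the 10 gene pairs in the first 100 bp outside it, 0 passed 0.2.

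**Figure D3:**
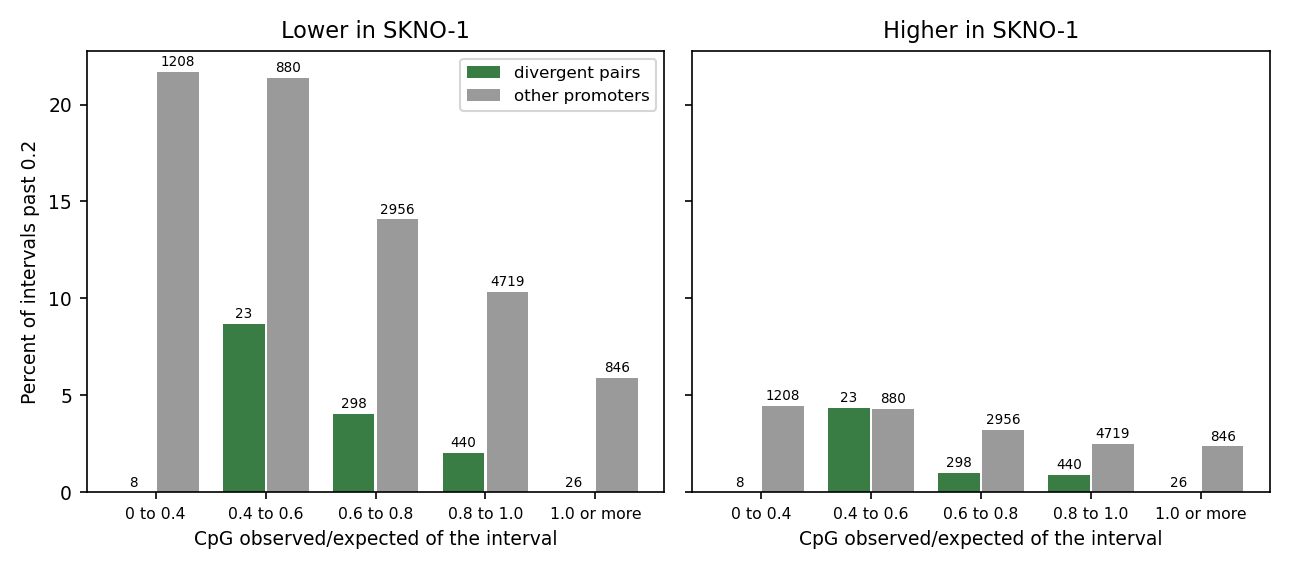
Percent of intervals that were lower (left) or higher (right) in SKNO-1 by 0.2 or more (y axis, from 0) by CpG observed/expected ratio (x axis) for divergent pairs and other promoters, with the number of intervals above each bar. From 0.6 to 0.8, 4.03% of 298 pairs and 14.1% of 2956 other promoters were lower.

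Single sites were compared with Fisher's exact test (2-sided) on the methylated and unmethylated reads, with Benjamini-Hochberg adjustment across the 3168726 shared sites, and called at an adjusted p under 0.05 with a difference of at least 0.2. This test compares the reads of 2 libraries and not conditions. Of the 46474 sites in the pairs, 1017 (2.19%) were lower and 524 (1.13%) higher in SKNO-1, where 11.7% of all shared sites were lower and 4.40% higher. The sites of the other promoters gave 8.72% and 2.81%. The 31 called pairs held 730 of the lower and 294 of the higher sites. In the 764 pairs within 0.2, 0.641% of 44798 sites were lower and 0.513% higher.

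The strands of a CpG give separate bisulfite reads, so levels on the plus and minus strand of the same library serve as a technical repeat. Over the 624 pairs with at least 5 CpGs read on both strands in both libraries, the SD of the difference between strands was 0.0538 in SKNO-1 against 0.0282 in SKNO-siAE. The SD of the difference between libraries at the same CpGs was 0.124 on the plus strand and 0.129 on the minus strand. By 0.2 or more, the plus strand was lower than the minus strand at 4 pairs and higher at 3 in SKNO-1, and at 1 and 1 in SKNO-siAE. Between libraries, 20 were lower and 8 higher on the plus strand, and 18 and 7 on the minus strand. Over the 701 pairs with at least 5 sites on each strand, where the strands need not hold the same CpGs, the SD between strands was 0.0673 in SKNO-1 against 0.0611 in SKNO-siAE. The plus strand was then lower at 7 pairs and higher at 8 in SKNO-1, and at 9 and 10 in SKNO-siAE, where the libraries gave 20 and 7 on the plus strand and 19 and 8 on the minus strand, with an SD of 0.119 and 0.122. Of 28 called pairs with at least 5 sites on each strand, 27 had a difference of the same sign on both strands, and 16 passed 0.2 on both. These pairs were called from the sites of both strands in 1 library per line, so a shared sign is largely built in. CCDC122/LACC1 was uneven, with -0.17 on the plus strand and -0.98 on the minus strand, as was KCTD19/LRRC36 with -0.01 and -0.31. STX8/CFAP52 was at -0.37 on the plus strand and at 0 on the minus strand.

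In the pairs, methylation was low around the starts and higher from about 1000 bp into the genes. At 0 to 99 bp into the gene, sites of the pairs averaged 0.0474 in SKNO-1 against 0.0558 in SKNO-siAE, and the sites of the other promoters 0.270 and 0.333. Between the starts of the pairs, 18667 sites averaged 0.0366 and 0.0437. At 500 to 599 bp into the genes of the pairs, the means were 0.112 and 0.128. By 1000 to 1099 bp they were 0.438 in both libraries, where the other promoters were at 0.445 in SKNO-1 against 0.496 in SKNO-siAE, and at 1900 to 1999 bp they were 0.676 and 0.706.

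Short motifs were searched on both strands in the 500 bp around the midpoint of a pair or around the start of another promoter. The ETS motif CCGGAAG was present in 302 of 795 pairs, in 19.4% of other promoters and in 22.3% of other promoters with a CpG ratio of 0.6 or more. The NRF1 motif GCGCATGC was present in 8.81%, 5.45% and 6.57%, the YY1 motif AAGATGGCG in 8.43%, 4.18% and 5.06%, and the BANP motif TCTCGCGA in 4.28%, 2.06% and 2.51%. The CCAAT motif bound by NFY was found in 52.7%, 42.8% and 41.8%. GGGCGG of the SP/KLF factors was found in 83.9%, 78.3% and 87.5%, TATAAA of the TATA box in 6.04%, 8.46% and 6.14%, and the RUNX motif TGTGGT in 15.5%, 14.5% and 11.9%. For GGGCGG and TATAAA the share in CpG-rich other promoters was above that in pairs. No motif searched contains another, although matches may share bases.

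Pairs with the ETS motif were under 0.1 in both libraries in 282 of 302 cases (93.4%) and pairs without it in 429 of 493 (87.0%). Of the other promoters, 81.0% with the motif and 51.5% without it were under 0.1 in both. With the NRF1 motif, 69 of 70 pairs were under 0.1 in both and 0 were lower or higher, and without it 642 of 725 were under 0.1 in both, 23 lower and 8 higher. At 70 pairs a count of 0 is near the shares over all pairs, 2.89% lower and 1.01% higher. Of 578 other promoters with the NRF1 motif, 30 were lower and 11 higher. Of 67 pairs with the YY1 motif 0 were lower and 1 higher, and of 34 with the BANP motif 0 were either. The ETS motif lay in 5 of the 23 lower pairs, among them ZNF597/NAA60 and TBC1D16/CCDC40, and in 5 of the 8 higher pairs, among them ZNF829/ZNF568 and APBB3/SLC35A4. It lay in 302 of all 795 pairs. The RUNX motif lay in 3 of the 23 lower pairs (PEX11A/WDR93, SCGB2B2/ZNF302 and TMEM53/ARMH1) and in 0 of the 8 higher pairs, against 123 of all 795 pairs. A match is a run of letters in the reference, and binding was not measured here.

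The ratio of reads between the libraries varied along the chromosomes. In 5-Mb bins whose log2 read ratio lay within 0.15 of the median bin, 13 of 467 pairs (2.78%) were lower and 4 (0.857%) higher, against 13.4% and 3.06% of the other promoters there. In bins with relatively many SKNO-1 reads 5 of 140 pairs were lower and 3 higher, and in bins with relatively few 5 of 188 were lower and 1 higher.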

How the data were processed

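MCC-Seq libraries of SKNO-1 and SKNO-siAE, 1 each, were analysed. The authors converted DNA with bisulfite, captured it with SeqCap Epi probes, trimmed the reads (cutadapt 1.4.2), aligned them to hg19 (BSMAP 2.73) and called methylation from unique sequences, with versions from the submitters' processing notes. The authors deposited counts of methylated and unmethylated reads for each CpG cytosine and strand, without normalization and at 5 or more reads per site. The positions were 1-based, and all 3167928 shared sites outside the mitochondrial genome fell on a CpG of GRCh37. Whether further PCR duplicates were removed is not given in the sources used here.

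Site levels were computed from these counts and averaged per interval. The thresholds were 5 reads, 10 sites and a difference of 0.2. Fisher's exact test was checked against scipy and tested on simulated reads. Intervals of pooled reads are 95% Wilson intervals, which treat the reads at each site as independent. The GRCh37 genome gave the sequences and GENCODE release 44, lifted to that build, the genes.

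The pairs, gene lists, motifs and limits were chosen with earlier results of these data known. The rule for named pairs took the 8 largest differences in each direction and the 6 highest levels in both libraries among pairs with at least 100 reads per library, the textbook pairs, and members of the lists that were called. RPA2/THEMIS2 and ALKBH2/UNG were on the list of textbook pairs but met no distance rule, SURF1/SURF2 had 0 shared sites and COL4A4/COL4A3 had 9. Some pairs that the rule named are not reported here. Alternatives were 10 reads, pooled reads, merged strands, single strands, 20 sites, a difference of 0.3, starts within 500 bp, fixed windows, another interval for the other promoters, bins of similar read ratio, and other site thresholds. The analysis used python 3.11.15, numpy 2.4.6, pandas 2.3.3, scipy 1.17.1, numba 0.67.0, pysam 0.24.0 and matplotlib 3.10.9.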

Additional observations from a re-analysis of the deposited data

How the results depend on the processing

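For the counts, shares and mean differences, 110 values were recomputed under other settings. Of these, 80 stayed within 1.5 times the count, the 95% interval of the share or the counting interval of the mean. The counting interval treats reads at each site as independent. Counts and shares have no direction to change, and of the mean differences 0 changed direction. Some settings left a value unchanged by construction, such as the limit of 0.3 for the mean differences. The shares of pairs that were lower or higher in SKNO-1 stayed within their 95% intervals under all of these settings. Counting per gene, with 250 bp on each side of each start, gave 44 lower (2.99%) and 17 higher (1.16%) of 1471 starts. These stand in place of 23 and 8 of 795 pairs, since both genes of a pair were counted. Of the starts, 92.3% were under 0.1 in SKNO-siAE. Keeping only bins of similar read ratio left 13 lower and 4 higher pairs. The share of other promoters that were lower went to 11.4% at 10 reads, 14.1% with merged strands, 11.5% at 20 sites, 10.2% at a difference of 0.3 and 14.8% with 750 bp upstream, and the share higher to 3.57% on the minus strand, 2.60% at 20 sites, 2.28% at 0.3 and 3.45% with 750 bp upstream. The mean difference over pairs was -0.0120 with merged strands, -0.00845 at 20 sites, -0.00623 within 500 bp, -0.00802 per gene and -0.0121 in bins of similar ratio. Over the other promoters it was -0.0558 at 10 reads, -0.0644 with pooled reads, -0.0693 with merged strands, -0.0639 on the plus strand, -0.0596 at 20 sites, -0.0641 with pairs within 500 bp, -0.0683 with 750 bp upstream and -0.0639 in bins of similar ratio. Bonferroni adjustment left 203 lower and 107 higher sites of pairs, and at least 10 reads left 334 higher sites, of fewer tested. The causes of the other shifts were not tested.

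For the called pairs that were named, 147 of 148 recomputed differences had the original sign and 129 passed 0.2. These settings reuse the reads that made the calls. The exception was STX8/CFAP52 on the minus strand, at 0. With pooled reads ZNF214/NLRP14 (-0.17), KCTD19/LRRC36 (-0.19) and LCMT2/ADAL (0.19) lay inside 0.2, and at 10 reads CCDC122/LACC1 (-0.19), ZNF214/NLRP14 (-0.09), TSPAN19/LRRIQ1 (0.16) and LCMT2/ADAL (0.13) did. Depth limits single sites to about 16 and 15 reads, and 1 library per line limits every difference.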

Other observations

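Among the pairs left out for having fewer than 10 shared sites, CNGA1/NIPAL1, of which CNGA1 encodes a channel of rod photoreceptors, had 9 sites with a level of 0.130 in SKNO-1 against 0.958 in SKNO-siAE, on 109 and 71 reads. TMEM176B/TMEM176A, membrane protein genes of myeloid cells, had 8 sites at 0.239 and 0.761, on 46 and 49 reads. In the other direction AK8/SPACA9 had 7 sites at 0.548 in SKNO-1 against 0.310 in SKNO-siAE. COL4A4/COL4A3, the other type IV collagen pair of the list, had 9 sites at 1 in SKNO-1 against 0.839 in SKNO-siAE, so both type IV collagen promoters were methylated in both libraries. These values rest on few sites, and their differences were not counted among the pairs above.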
